A study of Mus musculus with 6 samples.

Results

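The subunits of glutamate and GABA receptors were followed in the cerebral cortex of young mice labelled Qk-/- or wild type for the gene of the RNA-binding protein quaking. They were chosen by gene symbol from a list of 32 ionotropic and metabotropic glutamate receptor and GABA receptor genes. All 32 were found among the 35857 genes of the expression tables. The list does not hold every gene of these families, and shares within a family are shares of the listed members. Polyadenylated RNA of whole cortical tissue was sequenced on the Ion Proton in 3 Qk_KO libraries, labelled Qk-/-, and 3 Control libraries, labelled wild type. All 6 were from C57BL/6 mice at postnatal day 7. The labels give no promoter, Cre line or deleted exon for the Qk-/- genotype. Levels are given as TPM, a transcript abundance scaled by gene length and by library, so that levels of different genes can be set side by side.

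Glutamate opens ion channels of the AMPA, NMDA and kainate families, named after their agonists, and it also acts on metabotropic receptors that signal through G proteins. GABA opens the chloride channels of the GABA-A receptor and acts on the GABA-B receptor, a G protein-coupled dimer. Which subunits are used sets the kinetics, calcium entry and site of a receptor, and the mix shifts as the rodent cortex matures after birth. Well-known examples are the early use of Grin2b, Grin2d and Grin3a, the later rise of Grin2a, and the change in GABA signalling as the chloride exporter KCC2 comes up.

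Each library listed 18971 to 19710 genes above 0 TPM. TPM do not record read numbers, so depth is unknown. Qk itself was at 14.6, 15.2 and 15.4 TPM in the Qk_KO libraries, against 36.5, 43.2 and 41.3 TPM in the Control libraries, so 37.3% of the Control level of its RNA remained. The 6 markers of excitatory cortical neurons summed to 869.8 to 899 TPM in Qk_KO and 812 to 885 TPM in Control libraries, and 6 markers of inhibitory neurons to 2071 to 2140.1 TPM in Qk_KO and 1633 to 1872 TPM in Control libraries. The inhibitory sums did not overlap. Among these markers, Sst averaged 1314 TPM in Qk_KO and 1054 TPM in Control libraries, and Npy 481 and 387 TPM, both without overlap. Gad1, Gad2, Slc32a1 and Lhx6 overlapped, with log2 changes of 0.059, 0.011, 0.016 and 0.035. None of the neuronal markers passed the gene test, in which 58 of 14994 tested genes passed (limma, adjusted p under 0.05). The 5 markers of striatum summed to 226 to 241 TPM in Qk_KO and 209 to 264 TPM in Control libraries.

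A core at which quaking binds RNA reads ACTAAC in DNA letters. Up to 1000 bases after the stop codon of each member were searched for these letters only, on the transcript strand only. In GENCODE release M21, 18 of the 32 members had a 3' UTR of that length, in the transcript with the longest coding sequence. Within the searched bases the core was in 4 of them, or 22.2%, while it was in 13.7% of 6742 tested genes with a 3' UTR as long. Past the searched bases, and not in these shares, the 3' UTR of Grin2a, Grin2b, Grik2, Grik3, Gabra2, Gabrb1 and Gabrg3 also held the core. The sites within the searched bases are shown because the targeted protein is known to bind this core. They have the core in capitals and 12 bases on each side. A match describes the letters and is not a measured binding site. The site of Gria1 is at chr11:57327870-57327899 (plus strand), that of Gria4 at chr9:4419685-4419714 (minus strand), that of Grin3a at chr4:49664595-49664624 (minus strand) and that of Gabrg1 at chr5:70753131-70753160 (minus strand), all in GRCm38. Of the members with a shorter 3' UTR, which are not in these shares, Grm5 also held the core, at chr7:88131301-88131330 (plus strand).
Gria1: gtgaagatggtcACTAACtctatgctgcaa
Gria4: agacaagccgtcACTAACatgtgataggaa
Grin3a: gagcctcccctgACTAACcttgagtaggaa
Gabrg1: atgttcatatgtACTAACaatgaaatcaaa
Grm5: gtacattttctaACTAACtcaaaaaaatct
Of these 5 genes, 0 passed the test between the groups, which 0.387% of all tested genes passed. At that share, 5 genes cannot show whether the core goes with a change. Their log2 changes were −0.14 for Gria1, 0.052 for Gria4, 0.0029 for Grin3a, −0.22 for Gabrg1 and 0.033 for Grm5.

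The question put to the expression values was whether receptor subunit levels at postnatal day 7 differed between the libraries labelled Qk_KO and Control. None of the 32 members passed the test over all genes (limma on log2(TPM + 1), adjusted p under 0.05), against 0.387% of all tested genes, 0.287% lower and 0.1% higher in Qk_KO. The lowest adjusted p was 0.18, that of Grin2c. At an unadjusted p under 0.05 there were 2 members, Grin2c and Gabbr1, both lower in Qk_KO, against 8.72% of all tested genes and 5.3% for the lower direction. In 3 members, Grin2c, Gabbr1 and Grin2d, every Qk_KO value was below every Control value, and in 0 members every Qk_KO value was above. Such a lack of overlap was seen in 9.38% of the members and in 14.2% of all tested genes, of which 8.98% were lower and 5.2% higher in Qk_KO. The median log2 change of the members was −0.021, beside −0.026 over all tested genes. The change was below 0 in 19 of the 32 members, beside 57.0% of all tested genes, and in 15 and 16 of them after median-of-ratios or upper-quartile scaling of the libraries. The TPM of all members summed to 1785, 1755 and 1782 in Qk_KO and to 1789, 1816 and 1888 in Control libraries, while the sums of the single families overlapped between the groups. The highest Qk_KO sum was just under the lowest Control sum, and the sums were not tested. Overlap of values and of sums was judged on TPM that were not rescaled.

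The 95% intervals give the size of change that the spread between these 6 libraries leaves room for. An absolute log2 change of at least 0.5 was reached by 4.77% of all tested genes. For 27 of the 32 members the 95% interval of the log2 change lay within 0.5 on either side of 0. The same share over all tested genes was not counted. The 5 members with a wider reach were Grin2c, Gabra2, Grin2a, Gabrg1 and Grin2b, all of which had means under 18 TPM. An interval that spans 0 does not show that the groups are equal.

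**Figure D1:**
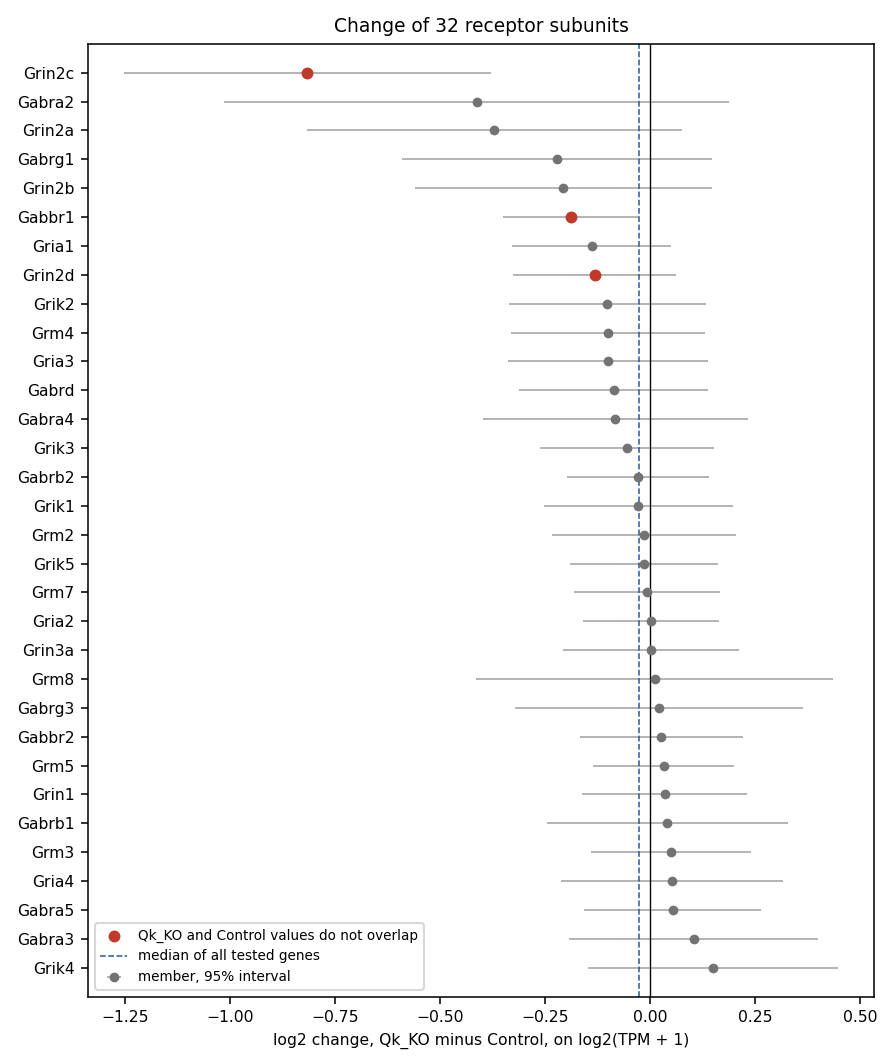
Log2 change of each of the 32 subunits, Qk_KO minus Control, on the log2(TPM + 1) scale, with the 95% interval from limma. Red points mark the 3 members whose Qk_KO and Control values do not overlap, and the dashed line is the median of all tested genes, −0.026. Grin2c stands at −0.82 and the other members lie between −0.41 and 0.15.

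AMPA receptors, which carry most of the fast excitatory current, were led by Gria1 and Gria2. Gria1, which encodes GluA1, was at 102, 109 and 113 TPM in Qk_KO libraries and at 130.0, 110.0 and 117 TPM in Control libraries (log2 change −0.14, SE 0.083, limma adjusted p = 0.707). The groups overlapped, and the Control library of replicate 1 was the highest of the 6; without it the change was −0.074. Gria2, which encodes the GluA2 subunit that makes the channel tight to calcium once its RNA is edited, was at 105, 98.7 and 110.3 TPM in Qk_KO and at 106, 101 and 106 TPM in Control libraries (log2 change 0.0028, 95% interval −0.16 to 0.16). Its Qk_KO values lay on both sides of the Control range. Gria4, a subunit of interneurons and young neurons, averaged 33.7 ± 2.94 TPM in Qk_KO and 32.6 ± 4.59 TPM in Control libraries, and Gria3 averaged 26.9 ± 2.04 TPM in Qk_KO and 29.0 ± 3.08 TPM in Control libraries (SD, n = 3 each). In Qk_KO libraries the values of Gria1 and Gria2 overlapped, whereas in Control libraries every Gria1 value was above every Gria2 value.

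Gria2 made up 39.3%, 37.4% and 38.1% of the summed TPM of Gria1, Gria2, Gria3 and Gria4 in Qk_KO libraries, against 35.7%, 36.8% and 37.2% in Control libraries. The groups did not overlap, by a margin of the lowest Qk_KO library over the highest Control library that was smaller than the SD within either group. The mean share was 38.3 ± 0.978% in Qk_KO and 36.6 ± 0.788% in Control libraries (SD, n = 3 each), a difference of 1.68 percentage points (exact permutation test, two-sided, p = 0.1; 0.3 after Benjamini-Hochberg adjustment over 6 balances). With 3 libraries against 3 this test cannot give a p below 0.1. Adarb1, the enzyme that edits the GluA2 transcript, was at 33.5, 34.7 and 34.6 TPM in Qk_KO and at 40.0, 37.1 and 37.0 TPM in Control libraries, which did not overlap but did not pass the test (log2 change −0.15, limma adjusted p = 0.656). TPM per gene say nothing of how much of the transcript was edited.

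NMDA receptors need the Grin1 subunit, which binds glycine, and pair it with Grin2 subunits that bind glutamate. Grin1 was at 274, 234 and 223 TPM in Qk_KO libraries and at 230.1, 236 and 245 TPM in Control libraries, the second highest mean of all members. The Qk_KO libraries lay on both sides of the Control libraries (log2 change 0.034, 95% interval −0.16 to 0.23). Whether reads were counted by strand is not given, so reads of Grin1 and of its opposite-strand gene Grin1os cannot be told apart.

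Among the Grin2 and Grin3 subunits at this age, Grin2d and Grin3a had the highest levels. Grin2d, a subunit of the young brain and of interneurons, was at 35.3, 39.0 and 37.3 TPM in Qk_KO and at 39.4, 39.1 and 44.1 TPM in Control libraries. On TPM that were not rescaled, the highest Qk_KO value was just under the lowest Control value. The difference did not pass the test (log2 change −0.13, SE 0.086, limma adjusted p = 0.732, and −0.078 without Control replicate 3). Grin3a, which lowers the calcium entry of the receptor, ranged over 36.2 to 42.8 TPM in Qk_KO and 36.7 to 39.7 TPM in Control libraries. Grin2b, the main partner of Grin1 in the young forebrain by textbook account, was at 12.9, 13.8 and 12.4 TPM in Qk_KO and at 18.9, 11.9 and 15.4 TPM in Control libraries, below Grin2d and Grin3a in all 6 libraries. Its log2 change of −0.21 was −0.056 without Control replicate 1.

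Levels set side by side in this way rest on the transcript length by which reads were divided, and the annotation used for the TPM is not given in the sources used here. In GENCODE M21 the transcript with the longest coding sequence is 24060 bases long for Grin2b and 14634 for Grin2a but 5431 bases for Grin2d and 7491 for Grin3a. Across the 32 members the mean TPM and this transcript length had a Spearman correlation of −0.29, which is a description over genes measured in the same 6 libraries. How far transcript length bears on the order of these subunits was not tested.

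Grin2a, the subunit that replaces part of Grin2b as the forebrain matures, was at 3.75, 2.73 and 3.09 TPM in Qk_KO and at 5.39, 4.66 and 3.33 TPM in Control libraries. The groups overlapped through the Control library of replicate 3 (log2 change −0.37, 95% interval −0.82 to 0.076, limma adjusted p = 0.653). The ratio of Grin2b to Grin2a was 3.44, 5.05 and 3.997 in Qk_KO and 3.51, 2.56 and 4.62 in Control libraries, and that of Grin2d to Grin2a was 9.41, 14.3 and 12.1 in Qk_KO and 7.31, 8.40 and 13.2 in Control libraries. Both ratios overlapped between the groups, with exact permutation p of 0.5 and 0.3, two-sided.

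Grin2c had the lowest mean TPM of all members and the largest change. It was at 2.0, 1.80 and 1.47 TPM in Qk_KO libraries, against 4.36, 3.11 and 4.14 TPM in Control libraries. All 3 Qk_KO values were below all 3 Control values. The mean of 1.76 ± 0.268 TPM in Qk_KO was 45.4% of the mean of 3.87 ± 0.667 TPM in Control libraries (SD, n = 3 each), and the log2 change was −0.82 (SE 0.193, 95% interval −1.25 to −0.38, unadjusted p = 0.00227, limma adjusted p = 0.18), which did not pass over all genes. Leaving out any 1 library gave log2 changes of −0.93 to −0.74 and adjusted p of 0.253 to 0.487. It was the only member with an absolute change of at least 0.5, a size reached by 4.77% of all tested genes.

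Grin2c encodes a subunit known from cerebellar granule cells and, in the cortex, from astrocytes. The 8 astrocyte markers summed to 493 to 544 TPM in Qk_KO libraries and to 712 to 763 TPM in Control libraries, 4 of the 8 passed as lower (Slc1a3, S100b, Fgfr3 and Gja1), 0 passed as higher, and none was at 0 in any library. Slc1a2, which did not pass, and Gfap were also without overlap and lower, Aqp4 overlapped, and Aldh1l1 ran the other way, at 78.7, 80.9 and 71.5 TPM in Qk_KO against 50.4, 52.3 and 63.8 TPM in Control libraries. Gfap averaged 156 ± 16.8 TPM in Qk_KO and 178 ± 6.27 TPM in Control libraries, and Aqp4 averaged 46.4 ± 1.86 TPM in Qk_KO and 49.1 ± 3.29 TPM in Control libraries (SD, n = 3 each). The 8 markers of newly formed oligodendrocytes and myelin summed to 157 to 182 TPM in Qk_KO and 295 to 310 TPM in Control libraries, with 4 passed as lower (Mbp, Gpr17, Bcas1 and Cnp). The 5 markers of oligodendrocyte precursors summed to 322 to 359 TPM in Qk_KO and 253 to 287 TPM in Control libraries, with Olig2 passed as higher. The list was mixed, as Olig1 was without overlap and higher (log2 change 0.42) and Pdgfra without overlap and lower (−0.30). Neither passed. Cspg4 (−0.14) and Sox10 (−0.20) overlapped. No marker of either list was at 0 in any library. The part of these cell types in the values of Grin2c, Gabbr1 and Grin2d was not tested. In bulk tissue, fewer cells of a type and less RNA per cell cannot be told apart.

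Of the other subunits known from astrocytes, those looked at here had smaller changes. Grm3, a receptor of neurons and astrocytes that lowers cyclic AMP, was at 39.5, 45.3 and 42.9 TPM in Qk_KO and at 39.5, 42.8 and 40.8 TPM in Control libraries. Grm5, the receptor behind glutamate-evoked calcium signals in young astrocytes and in neurons, was at 44.3, 46.1 and 47.3 TPM in Qk_KO and at 43.8, 46.0 and 44.6 TPM in Control libraries. Their groups overlapped, and the 95% intervals of the log2 change were −0.14 to 0.24 for Grm3 and −0.14 to 0.20 for Grm5. Gabrg1, a gamma subunit found in glia as well as in some neurons, was at 6.57, 4.30 and 5.97 TPM in Qk_KO and at 6.51, 6.58 and 6.79 TPM in Control libraries (log2 change −0.22, 95% interval −0.59 to 0.15; −0.070 without Qk_KO replicate 2). These genes were chosen for their known cell types after their values had been seen, and the difference between their changes and that of Grin2c was not tested.

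**Figure D2:**
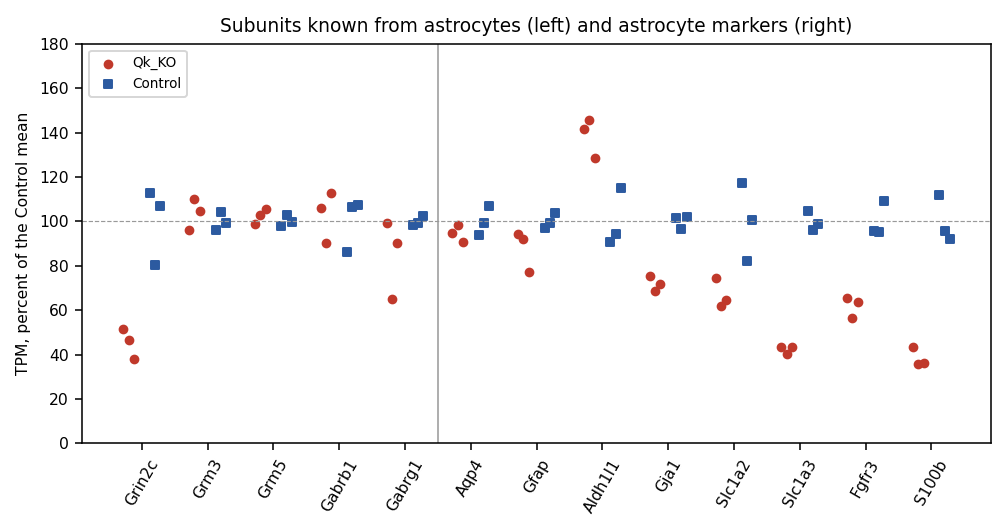
TPM per library as a percentage of the Control mean of the same gene, for 5 subunits known from astrocytes among other cells (left of the line) and the 8 astrocyte markers (right). Circles are the 3 Qk_KO and squares the 3 Control libraries. In Qk_KO, Grin2c averaged 45.4% of its Control mean, Gabrg1 84.7%, Grm5 102%, Gabrb1 103% and Grm3 103.7%. The marker Aldh1l1 lies above and most other markers below their Control libraries.

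Kainate receptors were dominated by Grik5, which encodes the high-affinity subunit GluK5 that works only together with GluK1, GluK2 or GluK3. Grik5 was at 171, 178 and 169 TPM in Qk_KO and at 159.8, 177 and 188 TPM in Control libraries, 65.2 ± 0.195% of the kainate sum in Qk_KO and 64.9 ± 1.42% in Control libraries (SD, n = 3 each). Its Qk_KO values lay within the Control range (log2 change −0.014, 95% interval −0.19 to 0.16). Of its partners, Grik3 averaged 39.7 ± 4.01 TPM in Qk_KO and 41.2 ± 0.784 TPM in Control libraries, Grik2 averaged 20.6 ± 1.75 TPM in Qk_KO and 22.2 ± 1.70 TPM in Control libraries, and Grik1 averaged 17.1 ± 0.919 TPM in Qk_KO and 17.5 ± 1.18 TPM in Control libraries. Grik4, the other high-affinity subunit, had the most positive change of the 32 members over the 6 libraries, with 16.95, 14.05 and 13.97 TPM in Qk_KO and 13.4, 11.6 and 15.3 TPM in Control libraries (log2 change 0.15, SE 0.132, limma adjusted p = 0.805), and its groups overlapped. Its change was 0.055 without Control replicate 2 and 0.064 without Qk_KO replicate 1, where other members had larger ones.

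Of the 6 metabotropic glutamate receptor genes, all but Grm8 were close to each other in level, and the groups overlapped in each. Their summed TPM was 198.5 ± 5.31 in Qk_KO and 198.5 ± 2.67 in Control libraries (SD, n = 3 each). Grm5, Grm3, Grm7, Grm2 and Grm4 had means between 30.3 and 45.9 TPM in Qk_KO and between 32.5 and 44.8 TPM in Control libraries. Grm2, Grm3, Grm4 and Grm7 couple to the inhibition of cyclic AMP, whereas Grm5 couples to phospholipase C. The lowest of the 6 was Grm8, a presynaptic receptor, at 5.11, 5.35 and 8.58 TPM in Qk_KO and 6.09, 6.45 and 5.88 TPM in Control libraries. Its Qk_KO values lay on both sides of the Control values, with the library of replicate 3 alone above them. The log2 changes of the 6 genes ran from −0.10 to 0.050, with a lowest adjusted p of 0.845.

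**Figure D3:**
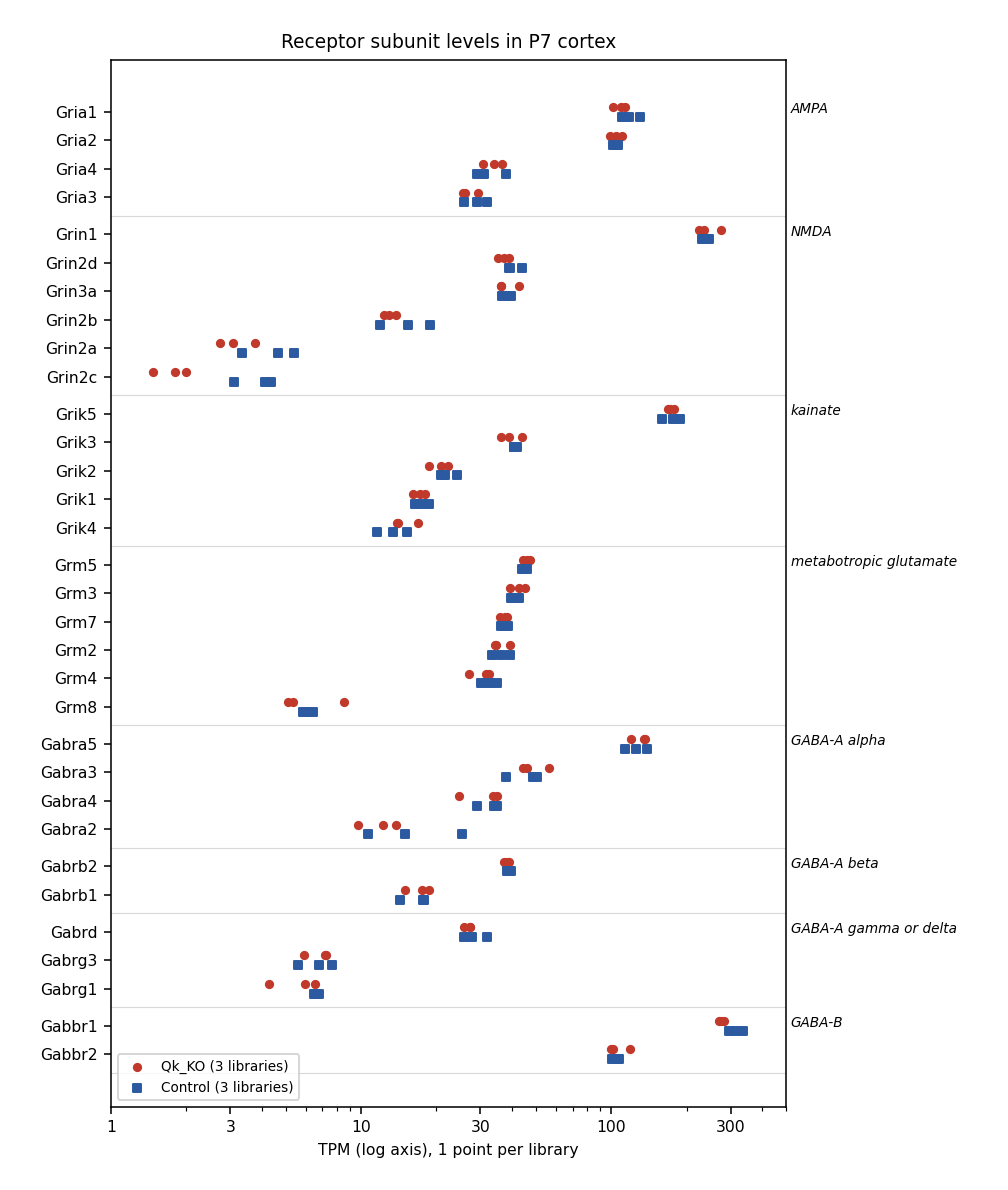
TPM of the 32 subunits by family, on a log axis, with 1 point per library (circles, Qk_KO; squares, Control). Gabbr1, Grin1 and Grik5 lead their families, Grin2a and Grin2c are the lowest members, and the Qk_KO and Control points of Grin2c are apart.

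GABA-A receptors of the young cortex use alpha subunits that give slow or extrasynaptic currents. Gabra5, an alpha subunit of extrasynaptic receptors, had the highest level of the listed alpha subunits, with 136, 120.1 and 137 TPM in Qk_KO and 114, 139 and 126 TPM in Control libraries, 58.9 ± 2.04% of the sum of Gabra2, Gabra3, Gabra4 and Gabra5 in Qk_KO and 57.1 ± 2.91% in Control libraries (SD, n = 3 each). Gabra3, an alpha subunit of the immature cortex, was at 46.2, 44.3 and 56.5 TPM in Qk_KO and at 37.9, 50.5 and 48.5 TPM in Control libraries. Gabra4, which joins the delta subunit in receptors of tonic inhibition, was at 33.6, 24.6 and 34.8 TPM in Qk_KO and at 29.0, 34.8 and 34.0 TPM in Control libraries. In all 3 genes the groups overlapped.

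Gabra2, an alpha subunit of synapses on the axon initial segment among other sites, had the widest spread relative to its mean among the Control libraries. It was at 12.2, 9.70 and 13.8 TPM in Qk_KO and at 10.7, 14.9 and 25.4 TPM in Control libraries. The Control library of replicate 3 stood above all others, and the log2 change of −0.41 (SE 0.265, limma adjusted p = 0.727) became −0.096 without that library. The ratio of Gabra3 to Gabra4 was 1.38, 1.80 and 1.62 in Qk_KO and 1.31, 1.45 and 1.42 in Control libraries, with overlap (exact permutation p = 0.3, two-sided).

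Of the beta subunits, which hold part of the GABA binding site, Gabrb2 was at 38.3, 37.3 and 39.2 TPM in Qk_KO and at 39.1, 39.5 and 38.4 TPM in Control libraries, and Gabrb1 at 17.6, 15.0 and 18.7 TPM in Qk_KO and 14.3, 17.7 and 17.8 TPM in Control libraries. Gabrb2 had the smallest relative spread of all members among the Control libraries, 1.49% of its mean. Gabrd, the delta subunit of tonic, neurosteroid-sensitive receptors, was at 27.3, 25.7 and 27.2 TPM in Qk_KO and at 27.7, 31.98 and 25.9 TPM in Control libraries. Gabrg3, a gamma subunit of low abundance, averaged 6.77 ± 0.728 TPM in Qk_KO and 6.68 ± 1.01 TPM in Control libraries (SD, n = 3 each). The 95% intervals of the log2 change were −0.20 to 0.14 for Gabrb2, −0.31 to 0.14 for Gabrd and −0.32 to 0.37 for Gabrg3.

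Several GABA-A genes had their lowest value in the same libraries. Gabra2, Gabra3, Gabra4, Gabra5, Gabrb1 and Gabrg1 were each lowest in replicate 2 among the Qk_KO libraries and lowest in replicate 1 among the Control libraries. That was 6 of the 9 GABA-A members, against 1 of the 23 other members, Grm7. Gabrb2, Gabrg3 and Gabrd had their lowest Control value in replicate 3 instead, and the Control values of Gabrg1 were nearly flat. Only the lowest library of each group was looked at, after the values had been seen, and the pattern was not tested. The share of all tested genes with the same lowest libraries was not counted, so these counts show no trait particular to GABA-A genes.

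Some GABA-A genes lie in clusters. Gabrg1, Gabra2, Gabra4 and Gabrb1 lie in a cluster on chromosome 5, at chr5:70751047-70842617, chr5:70958392-71095849, chr5:71569734-71658308 and chr5:71657921-72149572 in GRCm38.p6, with means over the 6 libraries of 6.12, 14.5, 31.8 and 16.8 TPM. Gabra5 (128 TPM) and Gabrg3 (6.72 TPM) lie together on chromosome 7, so genes of one cluster differed widely in level. Gabra3, which had its lowest values in the same libraries as the chromosome 5 genes, lies on chromosome X, and Gabrg3 beside Gabra5 did not have its lowest values there. Whether gene position bears on the lowest libraries was not tested. Gabra4 and Gabrb1 are arranged head to head and their RefSeq spans overlap by 388 bases, so reads from the overlap cannot be assigned without strand. Their start regions are shown because the genes face each other and overlap at their starts. Each window runs from 250 bases before to 50 bases after the RefSeq start (GRCm38.p6), at chr5:71658259-71658558 (minus strand) for Gabra4 and at chr5:71657671-71657970 (plus strand) for Gabrb1, and CG dinucleotides are in capitals.
Gabra4: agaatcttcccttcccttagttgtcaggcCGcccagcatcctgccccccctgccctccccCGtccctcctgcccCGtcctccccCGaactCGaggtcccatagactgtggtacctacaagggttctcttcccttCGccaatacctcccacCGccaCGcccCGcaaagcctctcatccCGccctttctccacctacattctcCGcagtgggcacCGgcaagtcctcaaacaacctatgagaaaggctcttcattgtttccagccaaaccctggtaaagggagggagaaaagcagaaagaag
Gabrb1: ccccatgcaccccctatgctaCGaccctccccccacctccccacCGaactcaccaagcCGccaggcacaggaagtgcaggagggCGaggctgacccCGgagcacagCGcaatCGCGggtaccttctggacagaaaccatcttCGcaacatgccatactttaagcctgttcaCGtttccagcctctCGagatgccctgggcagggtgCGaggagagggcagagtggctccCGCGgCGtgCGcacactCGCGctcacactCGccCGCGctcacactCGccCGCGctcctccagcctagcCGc
The window of Gabra4 holds 12 CG dinucleotides and that of Gabrb1 holds 25, beside a median of 7 in the 32851 promoter windows of the same length. At least as many were found in 39.6% of all windows for Gabra4 and in 18.4% for Gabrb1, and 94.6% of all windows hold at least 1.

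GABA-B receptors are dimers of Gabbr1, which binds GABA, and Gabbr2, which couples to the G protein. Gabbr1 had the highest mean TPM of the 32 members. It was at 276, 283 and 269.7 TPM in Qk_KO libraries, against 313, 296 and 337 TPM in Control libraries, with no overlap. The means were 276 ± 6.62 TPM in Qk_KO and 315 ± 20.6 TPM in Control libraries (SD, n = 3 each), with a log2 change of −0.19 (SE 0.071, 95% interval −0.35 to −0.027, unadjusted p = 0.0269, limma adjusted p = 0.487) that did not pass over all genes. Gabbr2 was at 99.6, 119 and 102 TPM in Qk_KO and at 106, 100.4 and 107 TPM in Control libraries, and its groups overlapped (log2 change 0.026, 95% interval −0.17 to 0.22).

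The ratio of Gabbr1 to Gabbr2 was therefore 2.77, 2.37 and 2.65 in Qk_KO and 2.95, 2.95 and 3.14 in Control libraries. It was lower in every Qk_KO than in every Control library, with means of 2.60 ± 0.203 in Qk_KO and 3.01 ± 0.11 in Control libraries (SD, n = 3 each; exact permutation test, two-sided, p = 0.1, the smallest it can give; 0.3 after adjustment over 6 balances). Leaving out 1 library at a time gave log2 differences of the ratio between −0.26 and −0.15. Their sign is fixed by the lack of overlap and adds nothing to it.

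**Figure D4:**
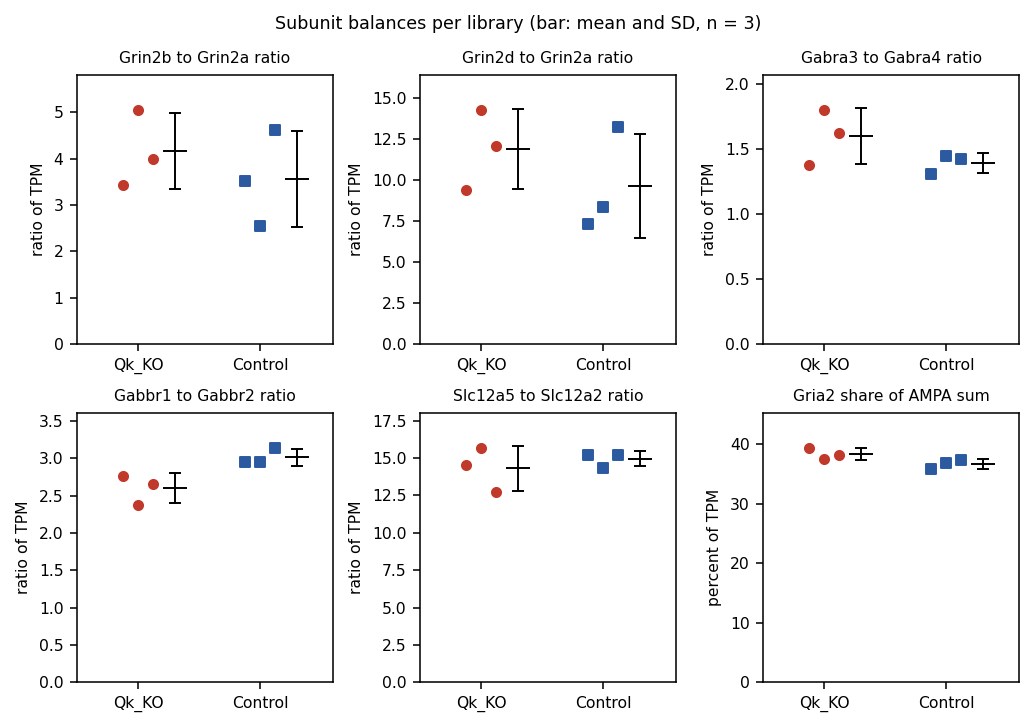
The 6 subunit and transporter balances in each library, as ratios of TPM or, for Gria2, as a percentage of the summed TPM of the AMPA receptor genes. Points are libraries, and the bar beside them gives the mean and SD of 3. The Gabbr1 to Gabbr2 ratio and the Gria2 share do not overlap between Qk_KO and Control, and the other 4 balances do.

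Genes that work with these receptors were examined as a second list of 41, of which 37 had a mean of at least 1 TPM and were tested. None passed (limma, adjusted p), 1 had an unadjusted p under 0.05, and 4 had Qk_KO values all below the Control values, 10.8% of the tested ones beside 8.98% of all tested genes, while 0 had Qk_KO values all above, beside 5.2%. The median log2 change was −0.028. The gene with the smallest p was Lhfpl4, a membrane partner that holds GABA-A receptors at inhibitory synapses, at 54.8, 57.3 and 53.3 TPM in Qk_KO and at 61.3, 63.2 and 68.4 TPM in Control libraries (log2 change −0.22, SE 0.077, limma adjusted p = 0.446). Besides Adarb1, the others without overlap were Cacng3, an auxiliary subunit of AMPA receptors (log2 change −0.13), and Homer2, a scaffold of metabotropic receptors (−0.19). Cnih2 and Cacng7, also auxiliary subunits of AMPA receptors, were the most abundant, with means of 902 ± 40.6 and 323 ± 38.7 TPM in Qk_KO and 930.3 ± 31.5 and 329 ± 40.0 TPM in Control libraries (SD, n = 3 each).

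The response to GABA depends on the chloride gradient. The exporter Slc12a5 (KCC2) lowers the chloride inside the cell and the importer Slc12a2 (NKCC1) raises it. Slc12a5 was at 136, 142 and 147 TPM in Qk_KO and at 149.7, 144 and 154 TPM in Control libraries, and Slc12a2 at 9.35, 9.03 and 11.5 TPM in Qk_KO and at 9.83, 10.0 and 10.1 TPM in Control libraries. The ratio of Slc12a5 to Slc12a2 was 14.5, 15.7 and 12.7 in Qk_KO and 15.2, 14.4 and 15.2 in Control libraries, which overlapped (exact permutation p = 0.7, two-sided). The 95% interval of the log2 change was −0.23 to 0.076 for Slc12a5 and −0.29 to 0.27 for Slc12a2.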

How the data were processed

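TPM per gene and library were deposited by the authors, under an Entrez number and a symbol. The submitters' processing notes name STAR 2.4.1d, RSEM 1.3.0 and the builds mm10 and GRCm38.p4; what each was used for, and which annotation, is not given in the sources used here. Groups and replicate numbers came from the sample titles. The TPM were not rescaled. Values on the log2(TPM + 1) scale were fitted, for genes averaging 1 TPM or more, with limma 3.58.1 in R 4.3.3 (lmFit, eBayes with trend, group as the only term), with Benjamini-Hochberg adjustment of two-sided p over 14994 genes and a threshold of 0.05. Log2 changes are Qk_KO minus Control and understate changes of low genes. Where the text names another setting, the adjusted p is from that setting; all others are from this model. The code was tested on simulated data. Balances were compared by exact permutation of the 6 libraries. The members, gene lists and markers were chosen with earlier results of these data known. Full values are given for members without overlap of the groups, for the most abundant member of each family and for the terms of the balances; further members were named after their values were seen. The labels do not say whether libraries came from separate animals, so p-values measure only the spread between these libraries, which may be technical. Promoter windows are from RefSeq (GRCm38.p6) and transcripts from GENCODE M21; all 32 members matched by Entrez number.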

Additional observations from a re-analysis of the deposited data

How the results depend on the processing

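In the 13 other settings tried, 0 of the 32 members (30 where a mean of 5 TPM was required, without Grin2a and Grin2c) and 0 of the companion genes tested passed the threshold, and the lowest adjusted p of any member was 0.109 (Grin2c, eBayes without trend). The count over all genes was 58 of 14994, and 74 of 11547 where a mean of 5 TPM was required. It was 57 on log2(TPM + 0.1), 53 after median-of-ratios and 52 after upper-quartile scaling. It was 37 of 23207 with no filter, 28 without the trend and 38 with the replicate number as a block. Settings without another number given tested 14994 genes. Leaving out 1 library gave 31, 28 and 33 without Qk_KO replicates 1, 2 and 3, and 53, 20 and 28 without Control replicates 1, 2 and 3. Same-numbered libraries did not deviate together beyond a correlation of 0.035 across genes, though each correlated best with its own number, a hint from the data and not the design. The sign of the change held in every setting that tested them for 16 members, among them Grin2c, Gabbr1, Grin2d and Grin2a. For Grin2c, Gabbr1 and Grin2d the lack of overlap fixes the sign when 1 library is left out. It turned after median-of-ratios scaling for Grik1 (0.00053), Grik5 (0.016), Grm2 (0.015) and Grm7 (0.022), and after upper-quartile scaling for Grik5 (0.012), Grm2 (0.011) and Grm7 (0.018). It also turned when 1 library was left out, over the ranges −0.053 to 0.095 (Grin1), −0.071 to 0.020 (Grik1), −0.082 to 0.11 (Gabrg3), −0.079 to 0.045 (Grm2), −0.029 to 0.018 (Grm7), −0.17 to 0.070 (Gabra4), −0.055 to 0.074 (Gabbr2), −0.036 to 0.044 (Gria2), −0.025 to 0.16 (Gria4), −0.075 to 0.042 (Grin3a), −0.13 to 0.0096 (Grik3), −0.077 to 0.040 (Grik5), −0.20 to 0.13 (Grm8), −0.021 to 0.18 (Gabra3), −0.057 to 0.13 (Gabrb1) and −0.019 to 0.13 (Gabra5). The cause was not tested. On TPM + 1 no balance moved by more than its SD, pooled over the groups. With 3 libraries per group, leaving out 1 cannot move a difference by that SD, so that rule could not fail there. Without Qk_KO replicate 3 the Slc12a5 to Slc12a2 difference turned to 0.014 from −0.068 (log2). The Grin2b to Grin2a difference ran from 0.029 without Control replicate 2 to 0.46 without Control replicate 3. Depth is unknown, so the counting error of low genes such as Grin2c and Grin2a cannot be given.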
